A study of Mus musculus with 96 samples.

Results

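Transcripts of 10 genes of the integrated stress response, Ddit3, Atf4, Trib3, Chac1, Asns, Sesn2, Ppp1r15a, Nupr1, Psat1 and Ddit4, were followed in single mouse cells with and without RO-3306. They are 10 of the 40202 genes in the deposited count files, and all 10 were matched by symbol. They were chosen by pathway with earlier results of these libraries in view, and Ddit3 was selected on its counts in the same comparison of RO-3306 with control, so its difference is a description. The cells are C10, a mouse lung line labelled alveolar type II epithelial and grown in RPMI medium with serum. The 48 control libraries came from untreated cells, and the 48 RO-3306 libraries from cells given the compound, sold as an inhibitor of the mitotic kinase CDK1, for 36 h. The labels write its dose as 10 nM, and nothing in the files allows that unit to be checked. Each library was made from 1 cell sorted with a CellenONE dispenser, with SMART-seq v4 cDNA, after the lysate was divided by the nanoSPLITS method.

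In the integrated stress response, kinases that sense unfolded protein, amino acid shortage, double-stranded RNA or haem shortage phosphorylate the translation factor eIF2. Most protein synthesis then slows, while the mRNA of the transcription factor ATF4 is translated more efficiently. ATF4, often paired with C/EBP family proteins, raises genes for amino acid supply and, when stress lasts, DDIT3 (also called CHOP), TRIB3 and CHAC1. PPP1R15A directs a phosphatase to eIF2 and closes the loop. Because ATF4 is controlled largely at translation, its mRNA level and its activity can differ, and no protein was analysed here.

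The analysis covers the 29 control and 37 RO-3306 cells whose libraries reached 50000 counts and 1000 detected genes. Their totals ranged from 59979 to 6457215 counts in control and from 295005 to 5321880 in RO-3306. Just inside the limits, control cell D10 with 59979 counts held 28 Atf4 counts and no Ddit3 count. Just outside, RO-3306 library D10 with 63235 counts but 743 genes held 136 Atf4 and 106 Psat1 counts. The titles also hold a letter, A, B, C or D, which the labels do not explain. These 4 lettered sets serve below only to compare signs. The labels name no separate cultures, so each treatment was taken as 1 sample, no test was made and no difference has a replicate check. Levels are CPM, the summed counts of a group's kept cells scaled to a total of 1e6, with exact Poisson 95% intervals that cover counting error only. PCR copies cannot be told from separate molecules. Differences are log2 ratios of RO-3306 over control with 1 CPM added to both, which understates the difference for low genes. The median log2 ratio of the 9374 genes that averaged 5 CPM or more was -0.22, and a ratio smaller than this has no settled sign. The labelled cell type was not borne out by its markers. Sftpa1, Sftpc, Sftpd, Slc34a2 and Napsa were at 0 in both groups, and all 10 alveolar type II markers together gave 23.5 CPM (control) and 27.7 CPM (RO-3306). The 8 macrophage markers summed to 57.6 and 61.2 CPM, with Marco at 0. The 9 mesenchymal markers summed to 5656 and 2540 CPM, from 1329 to 11354 CPM per control cell and from 1297 to 13894 per RO-3306 cell, so a second group of genes moved with treatment, and its part in the results below was not tested.

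Short stretches of 4 promoters are shown because each holds a match to a motif that was searched for. They were read from RefSeq on GRCm38.p6, in windows of 250 bases before to 50 bases after each gene's start, and all 10 genes had a window. Each runs 5′ to 3′ on the gene's own strand, and capitals mark the match. For Chac1 (chr2:119351023-119351082, plus strand) and Asns (chr6:7693210-7693269, minus strand) the match is to TGATGNAA, the composite site of ATF4 and C/EBP proteins. For Ppp1r15a (chr7:45526269-45526328, minus strand) it is the cyclic AMP response element TGACGTCA, and for Ddit3 (chr10:127290543-127290602, plus strand) the AP-1 site TGANTCA.
Chac1: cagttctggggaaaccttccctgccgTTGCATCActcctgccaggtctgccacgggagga
Asns: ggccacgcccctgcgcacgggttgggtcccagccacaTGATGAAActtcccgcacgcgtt
Ppp1r15a: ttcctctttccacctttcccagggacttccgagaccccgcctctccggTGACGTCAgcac
Ddit3: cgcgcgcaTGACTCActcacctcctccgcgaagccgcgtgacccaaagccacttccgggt

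Both strands were searched, and the 3 motifs do not share a match here. The Chac1 match begins 193 bases before the start and reads TGATGCAA on the opposite strand. The Asns match begins 23 bases before the start. The composite letters also occur in the windows of Nupr1, 110 bases before the start, and of Trib3, at base 15 after it. They are in 3.97% of all 32851 windows and in 4 of the 10 genes. The cyclic AMP element is in 1.79% of windows, and among these genes only in that of Ppp1r15a, 12 bases before the start. The AP-1 letters are in 7.81% of windows, and here only in that of Ddit3, 242 bases before the start. Outside these genes, 5 of 9 tRNA synthetase and export genes with a window (Aars, Gars, Iars, Tars and Yars) hold the composite letters, and so do Atf3, Jdp2, Pycr1, Got1, Slc1a4, Slc7a11, Fgf21, Herpud1, Vldlr and Eif2s3x. A match describes the letters only and shows no binding, and bases outside the windows were not searched.

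Among the transcription factors, Ddit3 was much more abundant in RO-3306 cells, whereas Atf4 mRNA was nearly level. Ddit3 (chr10:127126662-127132160 on GRCm39, plus strand), which encodes the stress factor CHOP, ranged in single control cells from 0 to 747 CPM with a median of 30.7, and in single RO-3306 cells from 0 to 1664 CPM with a median of 591. The ranges overlapped: 12 of 37 RO-3306 cells lay above the highest control cell and the others within the control range. Of the RO-3306 cells, 36 lay above the control median, and 2 of 29 control cells lay above the RO-3306 median. In the sums Ddit3 was at 60.9 CPM (59.0 to 62.8) in control and 566 CPM (561 to 571) in RO-3306, a ratio of 9.29 (8.995 to 9.59) and a log2 ratio of 3.19. That ratio is at percentile 98.3 of the 9374 genes. It was higher in all 4 lettered sets, with log2 ratios of 2.58, 4.20, 2.28 and 3.49 in sets A to D. With the mean over cells of log2(CPM + 1), which gives cells without a count full weight, the difference was 5.10.

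The control Ddit3 signal was carried by some of the cells. A count was found in 17 of 29 control cells, or 58.6% (exact binomial interval 38.9% to 76.5%, taking cells as independent draws), and in 36 of 37 RO-3306 cells, or 97.3% (85.8% to 99.9%). With each cell thinned at random to 639000 reads, these were 14 of 25 and 34 of 34 cells, so the gap in detection was present at equal depth. The RO-3306 cell without a count, A11 with 515218 counts, fell below that depth and was left out there. The highest control cells were C3 at 747 CPM and A12 at 724 CPM, and the third, C12, was at 217 CPM. Cell C3 was also the highest control cell for Atf4, at 2990 CPM, but had no count of Trib3, Chac1, Asns or Ppp1r15a. Of the RO-3306 cells, C2 had 1664 CPM, B9 had 1543 and C11 had 1477. Cell C11 was also the highest for Chac1 and Asns, at 1308 and 1105 CPM, while B9 had no count of Asns or Ppp1r15a.

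**Figure D1:**
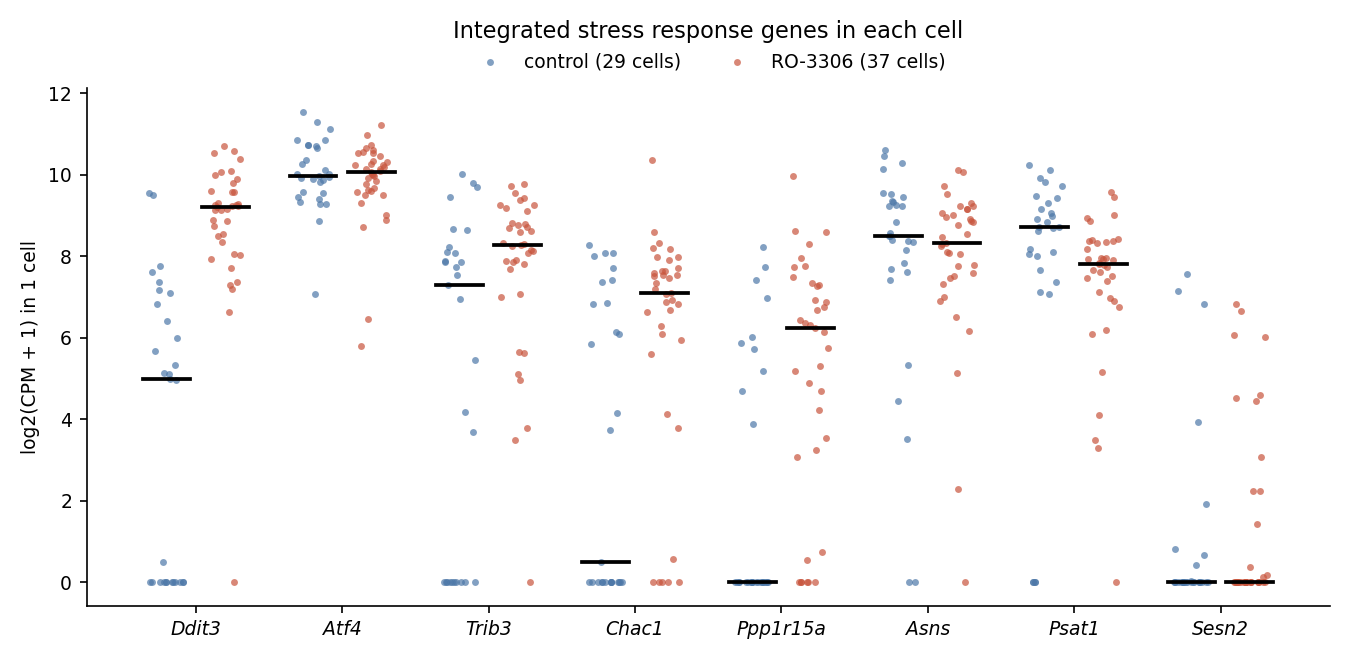
Level of 8 genes in each kept cell, as log2(CPM + 1) on the vertical axis; points are 29 control and 37 RO-3306 cells and bars are medians. For Ddit3, 36 of the RO-3306 cells lie above the control median of 30.7 CPM, whereas the Atf4 medians are 1007 and 1074 CPM.

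Atf4 (chr15:80139385-80141746, plus strand), the main effector of the pathway, had counts in every kept cell. Single control cells ranged from 134 to 2990 CPM with a median of 1007, and RO-3306 cells from 54.2 to 2405 CPM with a median of 1074. The ranges overlapped almost wholly, with no RO-3306 cell above the highest control cell. The sums were 1104 CPM (1096 to 1112) and 1046 CPM (1040 to 1053), a log2 ratio of -0.08 that was negative in sets A and D (-0.44 and -0.30) and positive in sets B and C (0.37 and 0.27). TMM scaling turned it to 0.13 and DESeq2 size factors to 0.16, and leaving out set A gave 0.20 and set B -0.30, so Atf4 has no settled direction.

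The balance between these factors was therefore different in the groups. Per kilobase of mRNA, Ddit3 was at 68.4 CPM per kb and Atf4 at 640 in control, against 636 and 607 CPM per kb in RO-3306. These values divide counts over whole spans, introns included, by mRNA lengths of 890 bases for Ddit3 and 1725 for Atf4. The counted spans are 5499 and 2362 bases, and the share of intron reads was not measured. The values therefore do not show that the 2 genes were level in RO-3306. In single cells the Ddit3 count was a median of 4.41% of the Atf4 count in control, with a highest value of 43.0%, and 52.6% in RO-3306. It was over 50% in 0 of 29 control and 20 of 37 RO-3306 cells. The highest RO-3306 value, 1744%, came from cell B3, which had 54.2 CPM of Atf4 and a mitochondrial share of 56.0% of its counts. Ddit3 made up 2.36% of the summed CPM of the 10 genes in control and 19.1% in RO-3306.

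**Figure D2:**
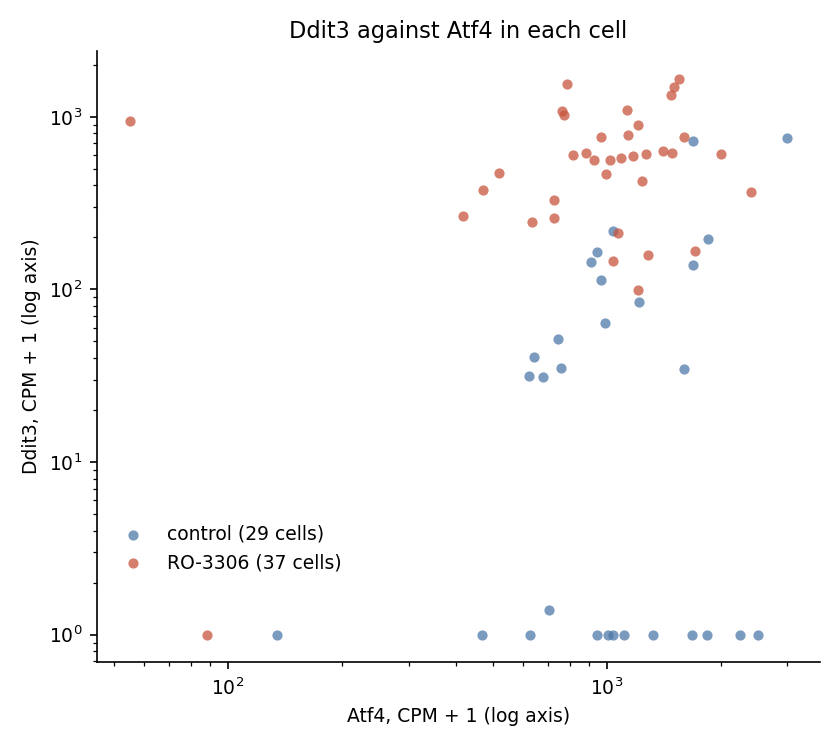
Ddit3 against Atf4 in each kept cell, both as CPM + 1 on log axes; points are 29 control and 37 RO-3306 cells. At like Atf4 levels most RO-3306 cells lie above the control cells, and 12 control cells and 1 RO-3306 cell have no Ddit3 count.

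Genes that act downstream of Ddit3 and Atf4 in prolonged stress were higher in RO-3306 by smaller amounts. Trib3 (chr2:152179345-152185980, minus strand), a pseudokinase that dampens AKT and ATF4 signalling, ranged from 0 to 1034 CPM in control cells (median 156) and from 0 to 872 in RO-3306 cells (median 311). The ranges overlapped, and 6 of 29 control cells lay above the RO-3306 median. Its sums were 273 CPM (269 to 277) and 386 CPM (382 to 391), a log2 ratio of 0.50. This came from sets C and D, at 1.33 and 1.83, while sets A and B were at -0.02 and 0.02. Without set C the ratio was 0.25 and without set A 0.78, and the mean over cells of log2(CPM + 1) differed by 2.63. A count was present in 19 of 29 and 36 of 37 cells. At equal depth, which left out the RO-3306 cell without a count, these were 17 of 25 and 34 of 34.

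Chac1 (chr2:119181723-119184807, plus strand) encodes an enzyme that degrades glutathione. Control cells ranged from 0 to 308 CPM with a median of 0.397, and RO-3306 cells from 0 to 1308 CPM with a median of 136. The groups overlapped: 7 of 29 control cells lay above the RO-3306 median and 3 of 37 RO-3306 cells above the highest control cell. The sums were 84.4 CPM (82.1 to 86.6) and 140 CPM (138 to 143), a log2 ratio of 0.73. All 4 sets were positive, at 0.58, 1.04, 1.12 and 0.96. Thinning the cells before summing gave 1.22, and the mean over cells of log2(CPM + 1) differed by 2.75.

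Ppp1r15a (chr7:45172341-45175692, minus strand), also called GADD34, is the inducible subunit that brings protein phosphatase 1 to eIF2. Control cells ranged from 0 to 297 CPM with a median of 0, and RO-3306 cells from 0 to 1005 CPM with a median of 74.6. A count was present in 10 of 29 control cells, or 34.5% (17.9% to 54.3%), and in 31 of 37 RO-3306 cells, or 83.8% (68.0% to 93.8%). At equal depth this was 10 of 25 and 27 of 34. The sums were 45.1 CPM (43.5 to 46.7) and 117 CPM (115 to 119), a log2 ratio of 1.36. Set A went the other way, from 75.3 to 62.2 CPM, whereas sets B, C and D went from 42.1, 2.99 and 0 CPM to 136, 170 and 67.9 CPM. The highest RO-3306 value was that of cell B3, with the high mitochondrial share, and it held 19.0% of the RO-3306 counts of the gene. Without that cell, as the only one above 20% mitochondrial counts, the log2 ratio was 1.32. Without set C it was 0.83 and without set A 2.23, and the mean over cells of log2(CPM + 1) differed by 2.96. Of its span, 21.8% overlaps Tulp2, and 60.5% of libraries with a count had a fractional one, so part of its reads is uncounted or shared with other sites.

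Of the amino acid enzymes among the 10 genes, Psat1 was lower in RO-3306, and Asns was lower by an amount that depends on the scaling. Asns (chr6:7675165-7693209, minus strand), asparagine synthetase, ranged from 0 to 1563 CPM in control cells (median 362) and from 0 to 1105 in RO-3306 cells (median 319). The groups overlapped, with 19 of 29 control cells above the RO-3306 median. Its sums were 538 CPM (532 to 543) and 417 CPM (413 to 421), a log2 ratio of -0.37 that was negative in all 4 sets, from -0.66 to -0.09. TMM scaling brought it to -0.16 and DESeq2 size factors to -0.13, inside the shift that leaves no settled sign. Without set B the ratio was -0.16 and without set C -0.55, and the mean over cells of log2(CPM + 1) turned the difference to 0.069. Psat1 (chr19:15882487-15902423, minus strand), a transaminase of serine synthesis, ranged from 0 to 1210 CPM in control cells (median 421) and from 0 to 757 in RO-3306 cells (median 223). The ranges overlapped, with 21 of 29 control cells above the RO-3306 median and 5 of 37 RO-3306 cells above the control median. Its sums were 457 CPM (452 to 463) and 269 CPM (266 to 273), a log2 ratio of -0.76, with set values from -1.36 to -0.63. The mean over cells of log2(CPM + 1) gave -0.30. A count was present in 25 of 29 control and 36 of 37 RO-3306 cells.

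The remaining genes gave little signal. Sesn2 (chr4:132220115-132237767, minus strand), a leucine sensor that restrains mTORC1, had a median of 0 in both groups, highest values of 188 and 113 CPM in control and RO-3306, and counts in 9 of 29 and 14 of 37 cells. Its sums were 13.5 and 14.2 CPM, and its log2 ratio of 0.07 was positive in sets A and B (1.14 and 1.55) and negative in sets C and D (-2.72 and -0.74). Cell D7 held 43.8% of its control counts. Ddit4 (chr10:59785497-59787592, minus strand), also called REDD1 and another brake on mTORC1, had 7 counts in 1 control cell and 1 count in 1 RO-3306 cell, although no other gene span overlaps it. Nupr1 (chr7:126222418-126224642, minus strand), a small stress-induced chromatin protein, was at 0 in all 96 libraries. Its whole span lies inside that of Gm39087, where reads over both genes are left out by the counting defaults, so its expression could not be read.

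Read against all genes, the 10 genes did not move as a block. Of the 10, 8 passed the minimum mean of 5 CPM, and Nupr1 and Ddit4 did not. Their median log2 ratio was 0.29. At least 2-fold higher were 2 of the 8, Ddit3 and Ppp1r15a, where 12.2% of all genes were. None of the 8 was at least 2-fold lower, where 24.2% of all genes were. The log2 ratio was above 0 in all 4 sets for Ddit3 and Chac1, against 13.1% of all genes, and below 0 in all 4 for Asns and Psat1, against 10.3%. With 8 genes these counts are a description, and for Ddit3 the choice of genes had used the contrast.

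**Figure D3:**
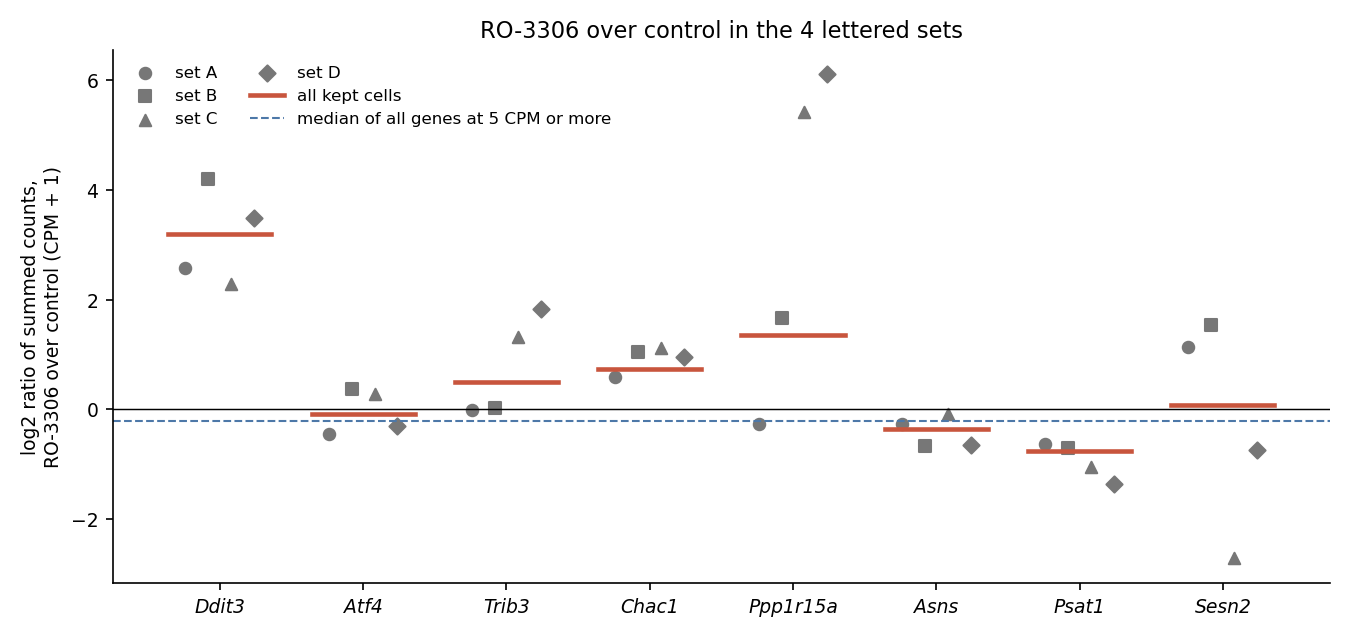
Log2 ratio of RO-3306 over control for 8 genes, in each lettered set (grey marks) and over all kept cells (red bars); the dashed line is the median of all genes, -0.22. Ddit3 lies between 2.28 and 4.20 in the sets and Psat1 between -1.36 and -0.63, while the value of Ppp1r15a in set D is set by the added 1 CPM, because the control sum there is 0.

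At equal depth a control cell had a count of a median of 5 of the 10 genes (25 cells, quartiles 4 and 7) and an RO-3306 cell of 7 (34 cells, quartiles 6 and 7.75). No thinned RO-3306 cell had 4 or fewer, against 9 control cells. The thinning left out RO-3306 cell A11, with 515218 counts, which had 2 of the 10 genes and no Ddit3 or Trib3 count. Over all kept cells and all reads, 1 of 37 RO-3306 and 11 of 29 control cells had 4 or fewer. Among the 14 control cells with a Ddit3 count, 11 also had Trib3, 9 had Chac1 and 9 had Ppp1r15a. Among the 11 control cells without Ddit3, 6 had Trib3, 4 had Chac1 and 1 had Ppp1r15a. In RO-3306 every thinned cell had both Ddit3 and Trib3, 29 of 34 also had Chac1 and 27 had Ppp1r15a. Detection was broader in RO-3306 for genes at large. At the same depth the median cell had 4591 genes with a count in control and 5968 in RO-3306, and 71.9% of the 9374 genes were found in a larger share of RO-3306 cells, with a median of 40% of control and 55.9% of RO-3306 cells. The part of this in the counts for the 10 genes was not tested.

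The amounts showed no shared direction from cell to cell in RO-3306. Spearman's rho was taken across thinned cells for genes with a count in 50% or more of the cells of a group, as a description. In 34 RO-3306 cells the 21 pairs of 7 genes had a median rho of 0.014 (range -0.33 to 0.41), and the pairs of all 3329 genes that met the same limits and 50 CPM had a median of 0.025 (quartiles -0.10 and 0.15). The pairs went both ways: 11 of the 21 were above 0, and 15 of the 21 lay outside those quartiles. Of all pairs, 50% lie outside their quartiles by definition, and with 21 pairs that share genes the count is a description. In 25 control cells the 15 pairs of 6 genes had a median of 0.15 (range -0.26 to 0.69), against 0.029 for the pairs of 3034 genes. Of those 15 pairs, 8 were above 0 and 9 lay outside the control quartiles of all pairs, -0.12 and 0.18. The same 6 genes had a median of 0.027 in RO-3306. The control median was at -0.028 without set B, and at 0.045 and 0.063 without sets A and C, so it rests on which sets are included.

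Ddit3 and Atf4 had a rho of 0.21 in RO-3306 and -0.03 in control. In RO-3306, Ddit3 had a rho of 0.19 with Chac1, -0.14 with Trib3, -0.16 with Ppp1r15a and -0.33 with Psat1. Atf4 had positive values with Trib3 (0.29) and Chac1 (0.21) and negative ones with Asns (-0.19) and Psat1 (-0.22). The highest value in RO-3306 was that of Asns with Psat1, at 0.41, which was 0.29 when values were centred on the lettered sets. In control that pair was at -0.11. The highest value in control was that of Trib3 with Chac1, at 0.69, which was between 0.58 and 0.88 without single sets. It was 0.54 when values were centred on the lettered sets and 0.55 with all reads. That pair was at 0.12 in RO-3306. Many control cells had a count of neither gene, and these tied zeros enter the value. Trib3 also had a rho of 0.52 with total counts in control, and Ddit3 one of -0.38 with total counts in RO-3306. The other values with total counts ran from -0.31 to 0.34. With the number of genes with a count at equal depth, Ddit3 had -0.41 in RO-3306 and 0.37 in control, and Trib3 had 0.44 in control. The other values with that number ran from -0.29 to 0.30. What depth and the number of detected genes add to the pair values was not tested.

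**Figure D4:**
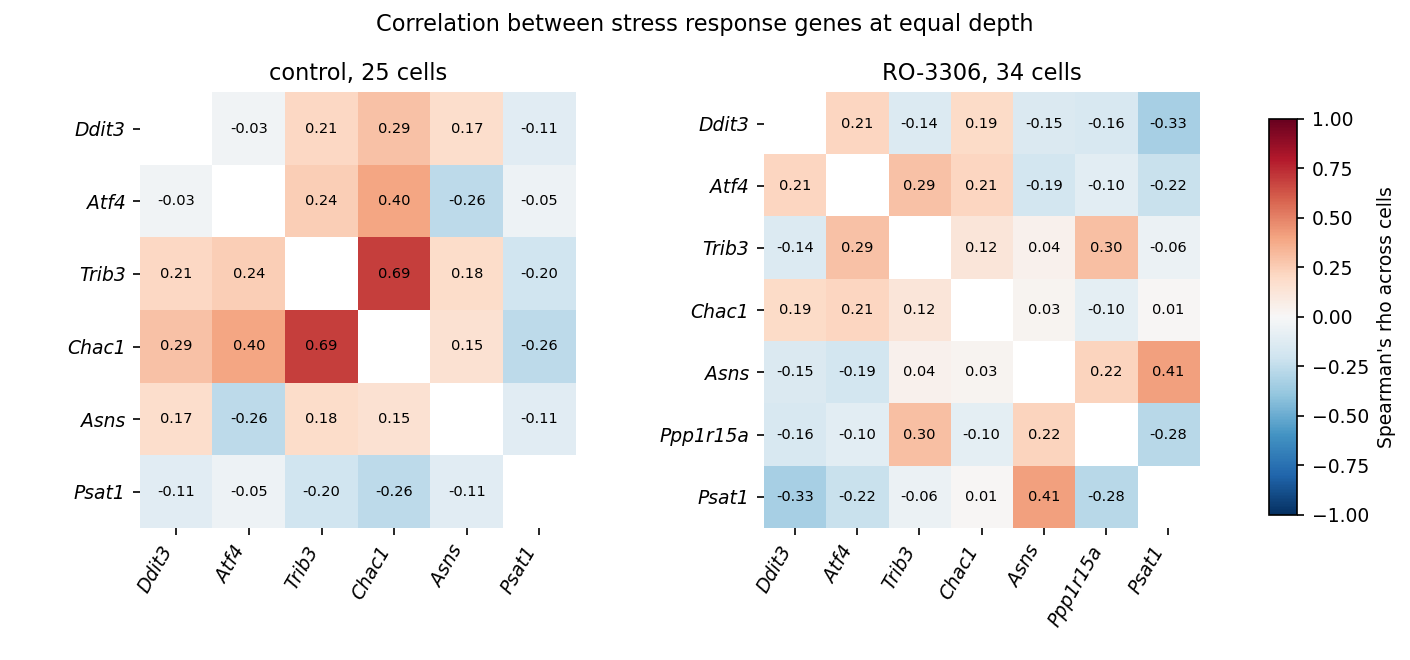
Spearman's rho between pairs of stress response genes across thinned cells, with 25 control cells on the left and 34 RO-3306 cells on the right; red is positive and blue negative. Trib3 with Chac1 in control, at 0.69, is the strongest pair, and the RO-3306 pairs go both ways, from -0.33 to 0.41.

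Against the summed levels of related gene groups in RO-3306 cells, Asns and Psat1 had a rho of 0.58 and 0.48 with the tRNA synthetase list. Ddit3 had -0.25 with that list and -0.49 with endoplasmic reticulum chaperones, and Atf4 had -0.14 and -0.17. Ppp1r15a had 0.39 with p53 targets, whereas Ddit3 had -0.27. In control cells the values with the tRNA synthetase list were 0.49 for Asns, 0.23 for Psat1, 0.28 for Ddit3 and -0.55 for Atf4. With the chaperones, Ddit3 was at -0.22 and Atf4 at -0.16 in control, and Ddit3 was at -0.06 with p53 targets. What depth and the number of detected genes add to these values was not tested.

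Over 3328 other genes in RO-3306 cells, the 5 most like Ddit3 were Rpl24 (rho 0.58), Grik3 (0.55), Fth1 (0.55), Ftl1 (0.54) and Fam221b (0.52). Rpl24 encodes a ribosomal protein, and Fth1 and Ftl1 the subunits of the iron store ferritin. The ferritin sums were 3065 and 11002 CPM for Fth1 and 3730 and 17674 CPM for Ftl1, in control and RO-3306. The 3 least like it were Copg1 (-0.63), Mlec (-0.61) and Pcmt1 (-0.60). The 4 genes named as most like Atf4 were Id1 (0.55), Ptma (0.54), Slpi (0.54) and Rpl13 (0.52), and the 3 least like it were Usp39 (-0.60), Cttn (-0.55) and Cs (-0.54). None of the genes named here for likeness is on the stress response lists. With so many genes ranked over 34 cells, values of this size at both ends are a description only.

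The rest of the pathway was followed in 67 further genes with a role in it, of which 61 averaged 5 CPM or more. At least 2-fold higher were 8, or 13.1%, and at least 2-fold lower were 15, or 24.6%, beside 12.2% and 24.2% of all genes. Of the 8 higher genes, Atf3, Eif2ak3, Slc6a9 and Gdf15 were under 5 CPM in control and passed the minimum only through RO-3306. The count of higher genes therefore supports nothing on its own. Their median log2 ratio was -0.32. Among the 4 eIF2 kinases, Eif2ak3 (PERK, which senses unfolded protein) was at 1.86, Eif2ak1 (HRI, haem) at -0.62, Eif2ak4 (GCN2, amino acids) at -0.83 and Eif2ak2 (PKR, double-stranded RNA) at -1.31. All 4 changed sign between lettered sets, and 1 cell held 50.8% of the Eif2ak3 counts of RO-3306. The 8 subunits of eIF2 and of its exchange factor eIF2B had a median of -0.07, from -0.58 for Eif2s3x, -0.45 for Eif2b1 and -0.21 for Eif2s1 to 0.23 for Eif2b2, 0.36 for Eif2b4 and 0.75 for Eif2b3, with none past 2-fold. All 8 changed sign between lettered sets. Eif2b1, for example, was at 0.93 and 6.42 in sets A and D, and Eif2b4 at -2.56 in set C.

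Of the phosphatase genes besides Ppp1r15a, the constitutive partner Ppp1r15b was at -1.03, and the catalytic subunits Ppp1ca, Ppp1cc and Ppp1cb were at 0.34, 0.44 and -1.16. The 3 catalytic subunits each kept 1 sign in all 4 sets. Ppp1r15b, with counts in 12 of 29 control and 15 of 37 RO-3306 cells, was positive in set C (1.52). Of 7 leucine zipper factors that partner with or sit beside ATF4, Atf3 and Atf5 stood at opposite ends. Atf3, a stress-induced repressor and activator, was at 1.41 CPM (1.14 to 1.73) in control and 29.7 CPM (28.6 to 30.8) in RO-3306, with counts in 2 of 29 and 16 of 37 cells and a log2 ratio of 3.67. It was positive in all 4 sets, from 1.91 to 5.50. Atf5, itself an ATF4 target in many cells, went from 32.1 to 6.24 CPM, a log2 ratio of -2.19, negative in all 4 sets. The other values were -0.07 for Cebpb, -0.14 for Cebpg, -0.16 for Nfe2l2, -0.16 for Cebpd and -0.67 for Jdp2.

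Among the genes that supply and charge amino acids, the tRNA synthetases were mostly lower, while the shares 2-fold lower among synthesis genes and transporters were near those of all genes. Over all genes, 59% had a ratio below 0 and 41% above it. Of 13 tRNA synthetase and export genes, 12 had a negative ratio, 7 were at least 2-fold lower and 8 were lower in all 4 sets, with a median of -1.24. The lowest were Aars (-1.90), Lars (-1.69) and Iars (-1.53), the synthetases for alanine, leucine and isoleucine. The highest were Wars, for tryptophan, at 1.23 (10.8 CPM in control, 26.6 in RO-3306), Gars at -0.07 and Sars at -0.11. Of 9 measured amino acid synthesis genes, 7 were negative and 2, Gpt2 (-1.33) and Pycr1 (-1.17), were at least 2-fold lower. Both were higher in set D (4.77 and 1.61), and in set A they were at -0.034 and -0.99. Mthfd2 was at -0.40, Phgdh and Psph, the enzymes before and after Psat1 in serine synthesis, were at -0.09 and 0.19, and Got1 was at 0.73. Of 8 transporters, 5 were negative and 2, Slc7a5 (-1.79) and Slc38a2 (-1.48), were at least 2-fold lower and negative in all 4 sets. Slc7a1 was at -0.71, Slc3a2 at 0.05, Slc7a11, the cystine importer, at 0.10, and Slc6a9 at 1.59, with 83.7% of its control counts in 1 cell.

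Stress targets outside amino acid supply were described in 8 of 12 genes that averaged 5 CPM or more. Of these 8, 6 had a positive ratio and 4 (Gdf15, Sqstm1, Tnfrsf10b and Bbc3) were at least 2-fold higher, but Gdf15 reached the minimum only through RO-3306, so the count and the median of 0.80 support nothing on their own. Gdf15, a secreted stress hormone, was at 0.0757 CPM (0.0246 to 0.177) in control, from 1 cell, and at 14.3 CPM (13.5 to 15.0) in RO-3306, from 10 of 37 cells. Sqstm1, an autophagy receptor, went from 410 to 943 CPM (1.20) with set values from 1.11 to 1.30. Tnfrsf10b, a death receptor, was at 1.19 with set C negative. Bbc3 was at 1.001, just past 2-fold, with set C at -2.47. It had counts in 4 control and 13 RO-3306 cells, and 1 cell held 48.8% of its control counts. Ero1a, an oxidase of the endoplasmic reticulum, was at 0.19, Vegfa at -0.54 and Herpud1 at -0.71. Endoplasmic reticulum chaperones and their regulators, the genes of the other arms of the unfolded protein response, had 16 of 18 genes below 0 and a median of -0.36, with 4 of 18 at least 2-fold lower, a share near that of all genes. Hsp90b1 was at -1.49, Hyou1 at -1.30 and Hspa5 at -1.20, although 81.0% of the Hspa5 span overlaps another gene. Hyou1 has no settled direction, with sets A and B at -1.37 and -3.20 and sets C and D at 4.08 and 1.83. It had counts in 5 control and 7 RO-3306 cells, and 1 cell held 45.9% of its control counts and 1 cell 56.8% of its RO-3306 counts. Dnajb9 was at 0.78, Sdf2l1 at 0.19 and Pdia3 at -0.24. The p53 targets, a list that shares Bbc3 and Tnfrsf10b with the stress targets above, had a median of 1.001 over 15 genes. Trp53inp1 was at 1.92, Cdkn1a at 1.85 and Mdm2 at 1.64, each positive in all 4 sets. Aen, Sesn1 and Btg2 were at -0.48, -0.51 and -0.82, but each changed sign between lettered sets and has no settled direction. Aen was at 2.94 in set D. Sesn1 was negative only in set B (-4.31), and Btg2 was positive in sets B and C (0.56 and 3.60). A single cell held most of the RO-3306 counts of Sesn1, and likewise most control counts of Btg2 and of Trp53inp1. The median cell held 1150 CPM of p53 targets in control against 2455 in RO-3306, and their part in the Ddit3 difference was not tested.

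**Figure D5:**
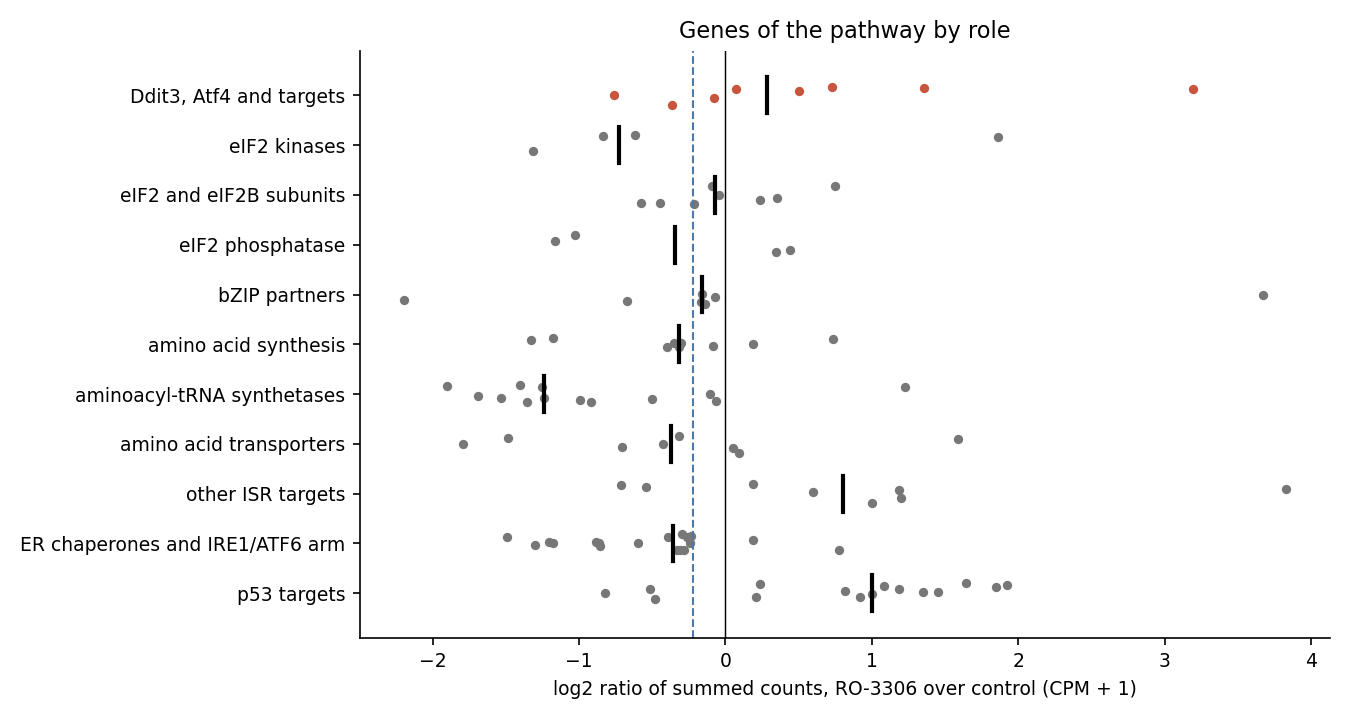
Log2 ratio of RO-3306 over control for genes averaging 5 CPM or more, by role; points are genes, black bars are list medians and the dashed line is the median of all genes, -0.22. The tRNA synthetases have a median of -1.24, the other stress response targets 0.80 and the p53 targets 1.001.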

How the data were processed

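The authors deposited 1 file of expected counts per library, and per the file headers these came from featureCounts 2.0.3 with GRCm39 and its RefSeq genes. Whole spans with their introns were counted, and multi-mapping reads were divided into fractions. The headers give no strand option and none for reads over more than 1 gene span, so by the tool's defaults strand was ignored and such reads were left out. STAR and FastQC are named in the submitters' processing notes, and their versions are not given in the sources used here. Counts were rounded to whole numbers for intervals, thinning and scaling factors, and a count more than 1e-06 from a whole number was called fractional.

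The 10 genes and all gene lists were chosen with earlier results of these data known. Counts were summed per group over kept cells. Thinning used percentile 10 of the kept totals, rounded down to a multiple of 1000, and left out 4 control and 3 RO-3306 cells. Other genes were named as the 3 highest and 3 lowest log2 ratios of a list among genes of at least 5 CPM (all genes of lists of up to 6), or as the 5 highest and 3 lowest correlations, of which 1 is not reported here. Genes named for a promoter match were named by the match. mRNA lengths came from GENCODE M21 transcripts by symbol. Shares carry exact Clopper-Pearson intervals at 95%. Alternatives were TMM factors (edgeR 4.0.16) and DESeq2 1.42.0 size factors in R 4.3.3, other pseudocounts, weights and filters on cells, thinning, a length correction, and leaving out single sets or top cells. Ratios and correlations were computed with scipy 1.17.1, numpy 2.4.6 and pandas 2.3.3 (Python 3.11.15), and the steps were tested on simulated data.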

Additional observations from a re-analysis of the deposited data

Results flagged for a closer look

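Libraries below the limits on counts or genes carried counts of some of these genes. Over the 11 left-out RO-3306 libraries, Atf4 was at 138 CPM (117 to 161) from 160 counts, above the 14.7 CPM (4.76 to 34.2) of the 19 left-out control libraries. One library, D10, held 136 of those counts. Psat1 was at 98.9 CPM (81.7 to 119) in the left-out RO-3306 libraries against 5.86 CPM (0.710 to 21.2) in the control ones, with 106 of 115 counts in the same library D10. Ddit3 was at 14.6 CPM (8.52 to 23.4) from 17 counts in 5 of the 11 libraries and at 0 in the control ones, and these intervals overlap. Asns was at 18.9 and 17.6 CPM. The source of these counts was not tested.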

How the results depend on the processing

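The 14 results were computed again 194 times: 87 values stayed within limits, 106 went beyond them, and 1 gene with 1 sign in all sets changed sign. Limits are counting intervals, 0.05 for a correlation and 1.5 times for a count. The filter at 3000 genes and the checks of single pairs were chosen after the values were seen. The Ddit3 log2 ratio was 3.40 with TMM, 3.43 with DESeq2 size factors, 3.11 with a pseudocount of 5, 2.69 as mean CPM over cells, 5.10 as mean log2 CPM, 3.60 thinned, 3.37 with at least 500000 counts and 3000 genes, 3.38 with 3000 genes alone, 2.94 after the length correction, 3.33 without the top cells and 2.74 to 3.40 without single sets. The median over the genes was 0.49 with TMM, 0.51 with DESeq2, 1.47 as mean log2 CPM, 0.42 after the length correction, 0.52 without the top cells, 0.036 with no minimum on CPM and 0.21 to 0.49 without single sets. The number at least 2-fold higher was 4 as mean log2 CPM and 1 to 2 without single sets. Asns turned from -0.37 to 0.069 as mean log2 CPM. The median correlation in RO-3306 was 0.12 with all reads and -0.028 to 0.053 without single sets. In control it was 0.22 as Pearson's r and -0.028 to 0.12 without single sets. The causes of these moves were not tested. No paired analysis was possible because the labels name no cultures that the lettered sets would share. With 1 sample per treatment, intervals of levels cover counting error only, and those of shares of cells take cells as independent draws and cover no spread between cultures. Shallow cells limit detection: a gene at a few CPM can be missed in a cell of 59979 counts.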
